A study of Mus musculus with 8 samples.

Results

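The transporters described here are 10 plasma membrane carriers of amino acids, or subunits of such carriers, whose genes belong to the amino acid and stress response: Slc7a11, Slc7a5, Slc3a2, Slc7a1, Slc7a2, Slc38a2, Slc38a3, Slc38a4, Slc1a4 and Slc1a5. They were taken by gene symbol, with earlier results of these data known, from the 16133 genes of the study's expression comparison and from its lists of N6-methyladenosine (m6A) peaks. All 10 were in the expression comparison and had an adjusted p there, and 7 had at least 1 m6A peak. The series compared liver RNA of METTL14Alb mice, a knockout of Mettl14 (KO below), with liver RNA of METTL14f/f mice, called wild type by the labels (WT below). Every mouse of both genotypes had been injected with tunicamycin, a drug that blocks N-linked glycosylation and so causes endoplasmic reticulum stress, at 2 mg/kg for 24 hours, so no group shows liver without the drug. Polyadenylated RNA was sequenced as KO IP and KO input and as WT IP and WT input, where IP is RNA pulled down with an m6A antibody and input is the same kind of RNA before the pull-down. Each of the 4 groups had 2 libraries. The labels give neither strain, age nor sex and do not spell out what drives the deletion. They also do not state whether a group's libraries stem from different mice. The p-values therefore measure only the spread between libraries. METTL14 forms, with METTL3, the enzyme that writes m6A into mRNA, and cells of the liver other than those with the deletion can still carry the gene.

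Amino acid carriers are part of how a stressed cell adjusts its supply. When unfolded proteins collect in the endoplasmic reticulum, the kinase PERK phosphorylates eIF2α, general translation falls, and translation of the transcription factor ATF4 rises. ATF4 binds composite C/EBP-ATF elements, also called amino acid response elements, near genes for amino acid synthesis and uptake. The carriers described here fall into 4 roles. SLC7A11 and SLC7A5 are exchangers that reach the membrane only with the glycoprotein heavy chain SLC3A2. SLC7A1 and SLC7A2 carry arginine, lysine and ornithine. SLC38A2 and SLC38A4 take up small neutral amino acids together with sodium (system A), and SLC38A3 carries glutamine, asparagine and histidine (system N). SLC1A4 and SLC1A5 exchange small neutral amino acids such as alanine, serine and cysteine, and SLC1A5 also takes glutamine. Hepatocytes are known for high levels of Slc7a2, Slc38a3 and Slc38a4.

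Promoter windows, which run from 250 bases before to 50 bases after an annotated start (RefSeq, GRCm38.p6, the same assembly as mm10), were at hand for 6 of the 10 genes, in 9 windows. They were searched on both strands for TGATGNAAN, the letters of the composite C/EBP-ATF element. Slc7a5, Slc7a2, Slc38a3 and Slc1a5 had no window to search. Matches were found for Slc7a11 and Slc1a4, and both promoters are shown for that reason. Both genes lie on the minus strand, the sequences run 5′ to 3′ along the gene, and capitals mark the matches.
Slc7a11, chr3:50443564-50443863: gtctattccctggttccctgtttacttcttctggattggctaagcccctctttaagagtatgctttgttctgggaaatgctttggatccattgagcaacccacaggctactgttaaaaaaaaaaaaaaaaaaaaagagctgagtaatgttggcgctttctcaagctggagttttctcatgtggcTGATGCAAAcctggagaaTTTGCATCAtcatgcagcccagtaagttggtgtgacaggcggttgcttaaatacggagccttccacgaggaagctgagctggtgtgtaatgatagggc
Slc1a4, chr11:20332664-20332963: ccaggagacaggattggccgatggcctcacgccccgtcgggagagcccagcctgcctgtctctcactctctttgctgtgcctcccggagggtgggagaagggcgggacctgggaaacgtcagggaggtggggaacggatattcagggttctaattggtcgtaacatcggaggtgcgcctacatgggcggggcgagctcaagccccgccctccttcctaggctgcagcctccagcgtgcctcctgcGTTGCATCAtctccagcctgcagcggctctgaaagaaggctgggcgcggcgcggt
Slc7a11 held a pair of matches. One, TGATGCAAA, lay on the gene's strand 66 to 58 bases before the start, and the other, the same letters on the opposite strand, 48 to 40 bases before it. The Slc1a4 window held TGATGCAAC on the opposite strand, from 5 bases before the start to the fourth base of the transcript. Among 32851 mouse promoter windows of the same length, 3.95% held a match. The core letters of the antioxidant response element, TGACNNNGC, were found in the windows of Slc7a1 (11 to 3 bases before the start, opposite strand) and Slc38a2 (27 to 19 bases before it, gene's strand), against 12.4% of all windows. These are letter matches in short windows and show no binding. The Slc7a11 start used here lies inside the annotated gene span, which begins further upstream.

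The set divided into carriers that were higher and carriers that were lower in KO liver. At a DESeq2 adjusted p under 0.05 in the authors' deposited table, 4 of the 10 transporters rose in KO input (Slc3a2, Slc7a5, Slc7a1 and Slc1a4), where 20.4% of all 14257 tested genes did. Another 4 fell (Slc7a2, Slc38a2, Slc38a3 and Slc38a4), where 22.2% of all tested genes did. Slc7a11 and Slc1a5 did not pass the test, with 42.5% of all genes called in either direction. The median log2 change of the set in the authors' deposited table was 1.29, beside 0.05 over all tested genes. The reads of each input library could be worked back out of the digits of the deposited means. They are given below for libraries KO A and KO B and for libraries WT A and WT B, and the genotypes did not overlap for any of the 10 genes. That is common in these data, since 80.9% of tested genes with a mean of at least 50 normalized counts did not overlap either, 36.7% with KO above WT and 44.2% with KO below WT. The letters only name the libraries and pair none of them across genotypes. In bulk tissue fewer cells of a type and less RNA per cell cannot be told apart.

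**Figure D1:**
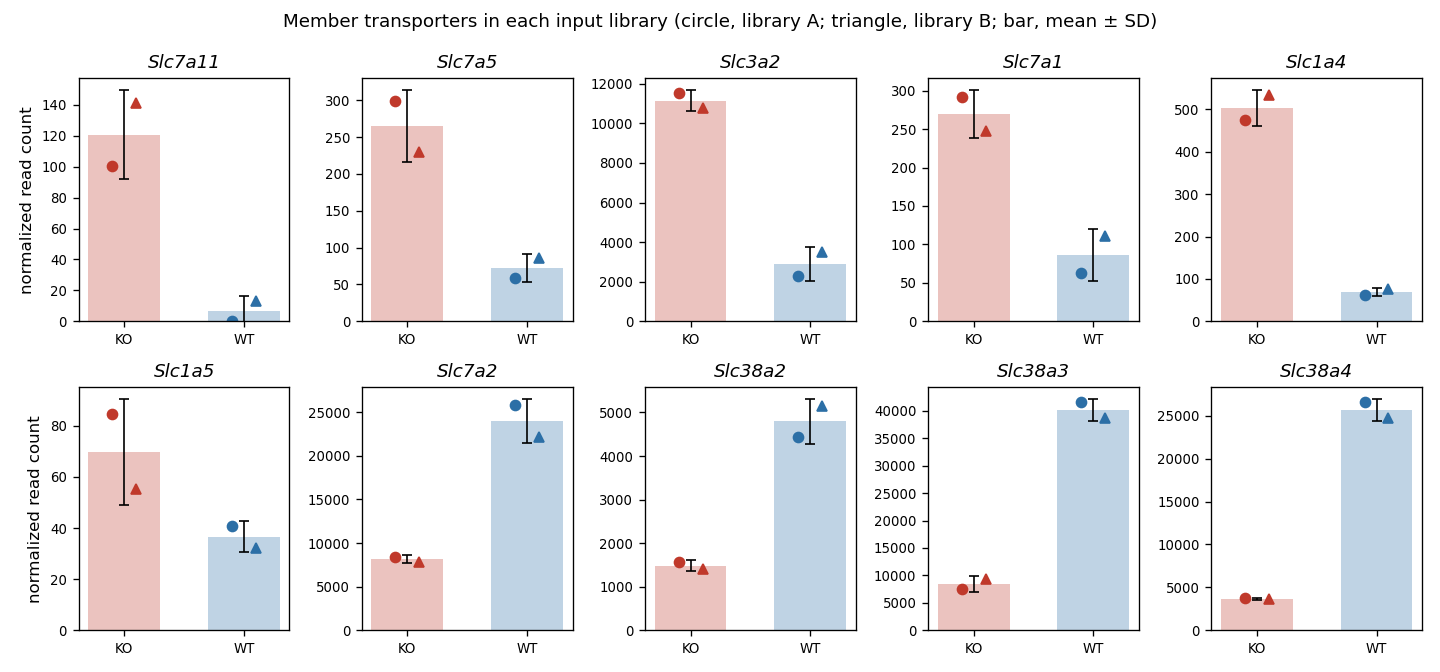
Normalized read counts of the 10 transporters in KO input (left in each panel) and WT input (right), on a linear axis from 0 that differs between panels. Symbols are single libraries, bars are means and whiskers ± SD (n = 2 libraries per genotype); Slc7a11, Slc7a5, Slc3a2, Slc7a1, Slc1a4 and Slc1a5 lie higher in both KO libraries and the other 4 genes lower.

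Slc3a2 encodes the heavy chain, also known as CD98 heavy chain, that partners the light chains of both exchangers. Its normalized counts were 11532 in KO A and 10775 in KO B, against 2302 (WT A) and 3492 (WT B). The lower KO library stood 3.09-fold above the higher WT library, and the KO libraries lay closer together than the WT libraries, which were 1.52-fold apart. The authors' deposited table gave a log2 change of 1.95 ± 0.22 (SE), which is 3.85-fold, with a DESeq2 adjusted p of 4.32e-18.

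Slc7a5 encodes LAT1, the exchanger that brings leucine and other large neutral amino acids into cells. It had 299.6 and 230.3 normalized counts in KO A and KO B, against 59.3 and 86.2 in WT A and WT B. Both KO values were above both WT values, and the lower KO library was 2.67-fold above the higher WT library. Slc7a5 rose 3.66-fold in the authors' deposited table (log2 change 1.87 ± 0.34 SE, DESeq2 adjusted p = 2.43e-07).

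Slc7a11 encodes xCT, the exchanger that imports cystine for glutathione synthesis and exports glutamate. In KO A and KO B 126 and 166 reads were counted, or 100.4 and 141.1 after normalization, against 0 reads in WT A and 10 in WT B, or 13.5 after normalization. Almost all Slc7a11 reads thus came from the KO libraries, and the WT libraries differed from each other as well. The lower KO library stood 7.46-fold above WT B and at least 31.0-fold above the level that 3 reads would give in WT A. The log2 change of Slc7a11 in the authors' deposited table was 4.18 ± 2.17 (SE), the highest of the set and the least precise, and its DESeq2 adjusted p of 0.109 missed the threshold. On the recovered counts limma gave 4.98 ± 1.08 (SE) with an adjusted p of 0.00684 (49.8% of all genes were called in that fit), so the call depends on the test. Over the other limma fits the adjusted p for Slc7a11 ran from 1.58e-06 to 0.218, both without 1 library. The value itself rests on the WT libraries: without WT A it was 3.05, and without WT B it was 6.91.

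Slc7a1 encodes CAT1, the widespread carrier of arginine and lysine, which normal liver holds at low levels. It had 291.7 normalized counts in KO A and 247.3 in KO B, against 62.5 and 110.4 in the WT pair. The KO libraries lay closer together than the WT libraries, which were 1.77-fold apart, and the lower KO value was 2.24-fold above the higher WT value. According to the authors' deposited table Slc7a1 rose 3.14-fold (log2 change 1.65 ± 0.34 SE, DESeq2 adjusted p = 8.65e-06).

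Slc7a2, the gene of the liver's own carrier for cationic amino acids, CAT2, moved the other way. Its normalized counts were 8443 and 7796 in KO A and KO B, against 25754 and 22186 in WT A and WT B. Both KO libraries lay below both WT libraries, and the libraries of a genotype were at most 1.16-fold apart. In the authors' deposited table Slc7a2 fell, with a log2 change of -1.56 ± 0.18 (SE) and WT 2.95-fold higher (DESeq2 adjusted p = 2.44e-17). The 2 carriers of arginine thus changed in opposite directions. Their levels are not compared with each other, because the counts are not divided by transcript length.

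The 3 SLC38 genes of the set fell. Not every gene of that family did: the authors' deposited table also holds Slc38a7, which rose by 1.06 ± 0.23 (SE) on a log2 scale (DESeq2 adjusted p = 2.73e-05), with 748.3 and 658.6 normalized counts in the KO libraries, against 306.2 and 370.3 in the WT libraries. Slc38a2 encodes SNAT2, the system A carrier known in human cells to be induced by amino acid starvation through an intronic amino acid response element. It had 1574 and 1397 normalized counts in KO A and KO B, against 4434 and 5159 in WT A and WT B. Here the genotypes were separated 2.82-fold between the highest KO and the lowest WT library. The authors' deposited table put the fall of Slc38a2 at a log2 change of -1.69 ± 0.19 (SE, DESeq2 adjusted p = 4.02e-18), with WT 3.23-fold higher.

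Slc38a3 encodes SNAT3, the glutamine carrier of hepatocytes that works in both directions. KO A and KO B had 7455 and 9419 normalized counts of Slc38a3, and WT A and WT B had 41547 and 38690. Its lower WT library was 4.11-fold above its higher KO library. The authors' deposited table gave Slc38a3 a log2 change of -2.25 ± 0.19 (SE, DESeq2 adjusted p = 6.68e-32), with WT 4.75-fold higher. For this gene 7 sets of whole reads fitted the deposited mean among those searched near the deposited log2 change. Only 1 of them also gave that change within 3e-06.

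Slc38a4 encodes SNAT4, a system A carrier found mainly in liver and imprinted in the mouse. It had 3749 and 3594 normalized counts in KO A and KO B, against 26567 and 24769 in WT A and WT B. No transporter of the set had a lower log2 change, and its libraries within a genotype lay close together. By the authors' deposited table Slc38a4 fell, at a log2 change of -2.81 ± 0.17 (SE) and with WT 6.99-fold higher (DESeq2 adjusted p = 6.88e-59). Only 1.96% of all tested genes had a lower change. The annotated span of Slc38a4 overlaps that of the long non-coding RNA gene Gm32840, and since the sources used here do not say whether counting used the strand, reads from the overlap cannot be told apart.

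The ASC carriers differed in how firmly they moved. Slc1a4, which encodes the serine and alanine exchanger ASCT1, had 474.2 and 533.6 normalized counts in KO A and KO B, against 62.5 and 76.8 in WT A and WT B. Every KO value was at least 6.18-fold above every WT value. Slc1a4 rose 7.27-fold in the authors' deposited table (log2 change 2.86 ± 0.29 SE, DESeq2 adjusted p = 4.19e-22), the largest rise among the called transporters. Slc1a5 encodes ASCT2, a glutamine exchanger of dividing cells. It had 84.5 and 55.2 normalized counts in KO A and KO B, against 41.0 and 32.3 in WT A and WT B. The genotypes did not overlap, yet the KO libraries were 1.53-fold apart and the lower of them was only 1.35-fold above WT A. The log2 change of Slc1a5 in the authors' deposited table was 0.93 ± 0.50 (SE), with a DESeq2 adjusted p of 0.127. It missed the threshold in limma too (0.89, adjusted p = 0.0598). Over the other limma fits the adjusted p of Slc1a5 ran from 0.00389, with equal total counts, to 0.347, without KO A.

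**Figure D2:**
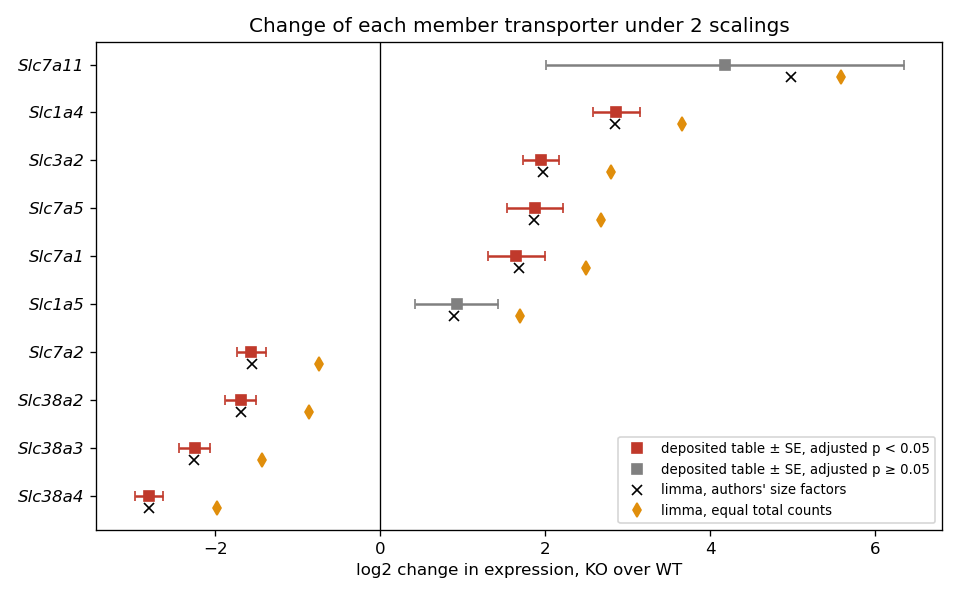
Log2 change in expression, KO over WT input, of the 10 transporters in the authors' deposited table (squares, with ± SE bars; red, DESeq2 adjusted p under 0.05; grey, 0.05 or above) and in limma with the authors' size factors (crosses) and with equal total counts (diamonds). Equal totals shift every gene to the right, since the median over all genes becomes 0.86, but none of the 10 genes changes sign.

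The split held under another scaling, in relative terms. When the libraries were scaled to equal total counts, limma put the median change of all genes at 0.86 on the log2 scale. Under that scaling the log2 changes of the 6 transporters above 0 ran from 1.69 for Slc1a5 to 5.58 for Slc7a11, all above that median, and each was called, as were 58.2% of all genes. The values of Slc7a2 (-0.74), Slc38a2 (-0.87), Slc38a3 (-1.44) and Slc38a4 (-1.98) were smaller in size but still below 0 and called, as were 8.02% of all genes. Without KO A or without KO B, limma called none of the 10 transporters and 0 of all 14149 genes, although 5112 and 5506 genes had an unadjusted p under 0.05. At that unadjusted level 7 transporters passed without KO A and 8 without KO B. Without WT A limma called all 10 transporters, and without WT B it called 9.

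Direction went along with the number of reads. The 4 transporters that fell had mean normalized counts of 3141 to 24278, whereas 5 of the 6 with changes above 0 had means of 53.3 to 286.8 and Slc3a2 alone reached 7025. These are read counts, not levels per transcript length. Among the 471 genes of the authors' deposited table with a mean of 3000 to 10000, a share of 67.7% fell and 7.86% rose. For the 181 genes with a mean of at least 10000 these shares were 82.3% and 3.31%. Among the 4574 genes with a mean of 50 to 300, 13.4% fell and 26.1% rose. Slc3a2 rose in a range of read counts where few genes did, while the falls of Slc7a2, Slc38a2, Slc38a3 and Slc38a4 were shared by most genes with as many reads.

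Cell type markers differed between the genotypes as well. Over all tested genes 22.2% fell and 20.4% rose in the authors' deposited table, and these shares apply to each marker list below. Of 14 tested hepatocyte markers 11 fell and 2 rose there. Most of them, such as Alb and Cyp2e1, had a mean normalized count of at least 10000, a range where 82.3% of genes fell and 3.31% rose. The summed normalized counts of the 7 markers with recovered reads were 53526 and 65006 in the KO libraries, against 297257 and 258183 in the WT libraries. None of these 7 was at 0 in any library. The sums leave out the markers whose reads were not recovered, so they do not give the change of all 14. By log2 change in the authors' deposited table these were Alb (-1.58), Apoa1 (0.64), Apob (-0.37), Serpina3k (-2.35), Ahsg (-0.77), Tat (-0.84) and Cps1 (-2.22). Serpina1a fell by 3.32 on the log2 scale (DESeq2 adjusted p = 2.46e-75), Serpina1b by 2.90 (adjusted p = 4.13e-49) and Cyp2e1 by 2.82 (adjusted p = 3.3e-45), while Apoa1 (0.64, adjusted p = 0.0275) and Cyp3a11 (0.46, adjusted p = 0.0323) rose. These falls stand beside those of Slc7a2, Slc38a2, Slc38a3 and Slc38a4, and their part in the result was not tested. Bile duct and progenitor markers rose in 10 of 14 cases and fell in 0, beside 20.4% and 22.2% of all tested genes. Their summed normalized counts were 5568 and 4647 in the KO libraries, against 1616 and 1799 in the WT libraries, and 3 of the 14 were at 0 in each WT library and none in a KO library. Stellate cell and fibroblast markers rose in 9 of 13 cases (sums of 12626 and 9236 in the KO libraries, against 5218 and 4036 in the WT libraries), and cycling cell markers in 8 of 12 (1591 and 1090 in the KO libraries, against 456.1 and 433.6 in the WT libraries). Among their leading genes in the authors' deposited table, Krt19 had a log2 change of 3.59, Spp1 of 2.24, Tspan8 of 3.65, Col3a1 of 4.02, Col1a1 of 4.08, Col1a2 of 2.72, Mki67 of 5.06, Mcm2 of 3.46 and Mcm6 of 3.41. Macrophage markers were higher in 2 and lower in 2 of 14 cases (14.3% each), with Cd68 (3.65) and Cd14 (2.44) up and Clec4f (-1.39) and Vsig4 (-1.03) down. With equal total counts Clec4f (-0.61) and Vsig4 (-0.18) were not called. Of 12 endothelial markers only Clec4g passed (-0.54, but 0.27 with equal total counts). Of 10 lymphocyte markers 0 passed in DESeq2, 0 had an unadjusted p under 0.05 there, and 0 passed in limma. With equal total counts limma called 58.2% of all genes higher and 8.02% lower. In that fit 13 of 14 bile duct, 13 of 13 stellate and 11 of 11 cycling cell markers were called higher. So were 7 of 14 macrophage, 9 of 11 endothelial and 1 of 10 lymphocyte markers, while 6 of 7 hepatocyte markers were called lower and 1 higher. The part of these cell types in the rises of Slc3a2, Slc7a5, Slc7a1 and Slc1a4 was not tested.

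The deposited table also held 33 other amino acid carriers, 25 of them tested. Of these 7 rose (28%) and 4 fell (16%), with a median log2 change of 0.52. With equal total counts limma called 17 of the 25 higher and 3 lower, beside 58.2% and 8.02% of all genes. Those with the smallest adjusted p were carriers of several substrates. Slc6a9, the glycine carrier GlyT1, had 1470 and 1518 normalized counts in the KO libraries, against 236.1 and 282.8 in the WT libraries, and rose by 2.53 ± 0.21 (SE) in the authors' deposited table (DESeq2 adjusted p = 1.32e-30). The creatine carrier Slc6a8 rose by 2.80 and the carrier of large neutral amino acids Slc43a2 by 2.04. The glutamate carrier Slc1a2 fell by 2.79 ± 0.26 (SE), with 329.1 and 424.0 normalized counts in the KO libraries, against 3330 and 1877 in the WT libraries. Slc43a1, a further carrier of large neutral amino acids, fell by 2.67. Slc3a1, the heavy chain of the kidney-type cystine carrier and the only relative of Slc3a2 among them, fell by 2.20, opposite in direction to Slc3a2. Its usual partner Slc7a9 had no adjusted p, with at most 2 reads in a library.

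**Figure D3:**
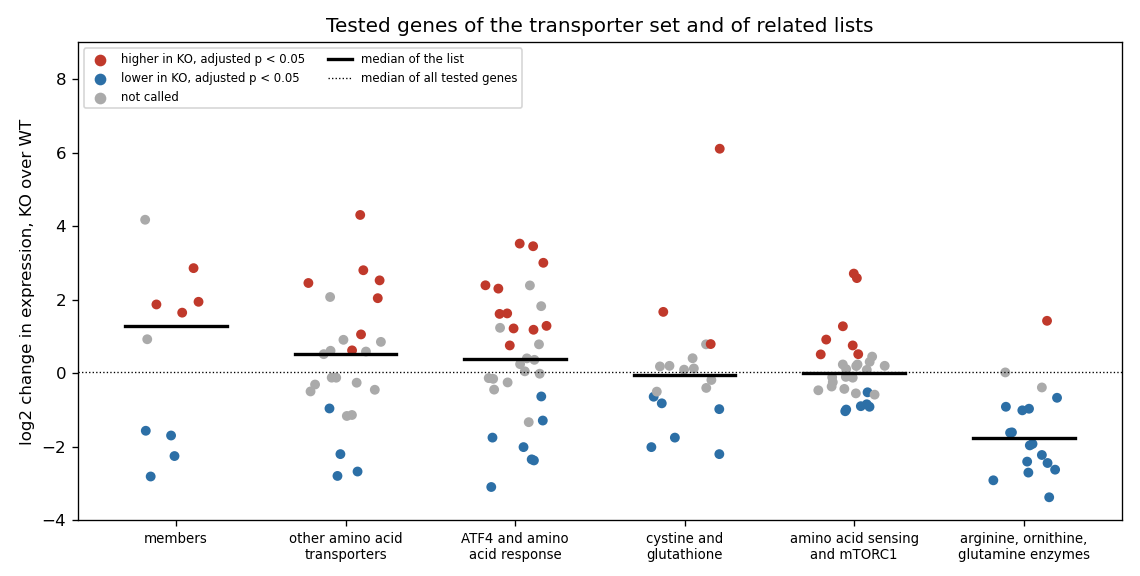
Log2 change in expression, KO over WT input, of every tested gene in the transporter set ("members", 10 genes), the other amino acid carriers (25) and 4 related lists of 18 to 32 genes, from the authors' deposited table. Points are genes, thick lines the medians of the lists and the dotted line the median of all genes (0.05); the arginine, ornithine and glutamine enzymes lie lowest, with a median of -1.77, and the transporter set splits into a group above and a group below 0.

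Other genes of the ATF4 and amino acid response moved in both directions. Of 32 such genes 11 rose (34.4%) and 7 fell (21.9%) in the authors' deposited table, beside 20.4% and 22.2% of all tested genes, with a median log2 change of 0.39. With equal total counts 21 of the 30 that could be fitted were called higher and 6 lower, beside 58.2% and 8.02% of all genes. Nupr1, a stress-induced chromatin protein, rose by 3.01, the mitochondrial folate enzyme gene Mthfd2 by 2.30 and the translation inhibitor gene Eif4ebp1 by 1.22. Atf5, a transcription factor of the same family as ATF4, fell by 2.34, Herpud1, which serves degradation of unfolded proteins, by 2.37, and Cth, the last enzyme of cysteine synthesis, by 2.01. Atf4 itself had 2970 and 2989 normalized counts in the KO libraries, against 1750 and 3989 in the WT libraries, and the genotypes overlapped. Its log2 change in the authors' deposited table was 0.05 ± 0.29 (SE, DESeq2 adjusted p = 0.902).

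Genes that use what the transporters carry were also counted. Over all tested genes 20.4% rose and 22.2% fell in the authors' deposited table. With equal total counts limma called 58.2% of all genes higher and 8.02% lower. Of 18 tested cystine and glutathione genes 3 rose and 6 fell (median log2 change -0.04), against 10 and 3 with equal total counts. In the authors' deposited table the oxidative stress regulator Nfe2l2 rose by 1.67, sulfiredoxin Srxn1 by 0.80 and gamma-glutamyltransferase Ggt1, at 0 reads in both WT libraries and 16 and 21 reads in the KO libraries, had a fitted value of 6.11. Cbs, which starts cysteine synthesis, fell by 1.75 beside Cth and Slc3a1. Of 30 tested genes of amino acid sensing and mTORC1, the kinase complex that answers to leucine and arginine, 7 rose and 6 fell (median -0.00), against 21 and 0 with equal total counts. Sesn3 (2.59), Rragd (2.71) and Fnip2 (1.28) rose, and Sec13 (-1.03), Lamtor2 (-0.89) and Rheb (-0.91) fell in the authors' deposited table. Of 18 tested enzymes and mitochondrial carriers of arginine, ornithine and glutamine 15 were called lower and 1 higher (median -1.77). With equal total counts 9 of 16 were lower and 3 higher. Several of them, such as Arg1 and Cps1, had a mean normalized count of at least 10000. In that range 82.3% of genes fell and 3.31% rose in the authors' deposited table (median -1.62), so falls were common among genes with as many reads. Arg1, which splits arginine, fell by 2.91, and the ornithine enzymes Oat by 3.37 and Otc by 2.70 in the authors' deposited table. Slc7a2 and Slc38a3, whose substrates these enzymes use, fell too, whereas Slc7a1, which also carries arginine and ornithine, rose by 1.65.

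The m6A peaks of the transporters came from 1 deposited list per genotype, made of IP over input, so there is no replicate and no test between genotypes. Fold enrichment and p of each peak are the authors' own, and nothing at hand names the caller. The KO list held 21 peaks in 7 of the transporters and the WT list 17 peaks in 5 of them. Peaks in both lists were found for 5 transporters (Slc3a2, Slc7a2, Slc38a2, Slc38a3 and Slc38a4), all with a mean normalized count of at least 3000, where 82.1% of genes had peaks in both lists. Over all genes of the table that share was 16.9%, and 62.1% had no peak. Of the KO peaks 10 overlapped a WT peak by at least 1 base, or 47.6%, beside 28.3% of all KO peaks. Of the WT peaks 15 overlapped a KO peak, or 88.2%, beside 75.4% of all WT peaks. These shares over all peaks include genes with fewer reads, so they are not matched to the transporters by read count. Slc7a11, Slc7a1 and Slc1a4 had no peak in either list. Genes with a mean normalized count of 50 to 300, where these 3 lie, had no peak in 71.7% of cases, and a gene without a peak at such a level is not shown to lack m6A. The largest deposited p among the transporters' peaks was 2.71e-05 in the KO list and 2.07e-09 in the WT list.

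**Figure D4:**
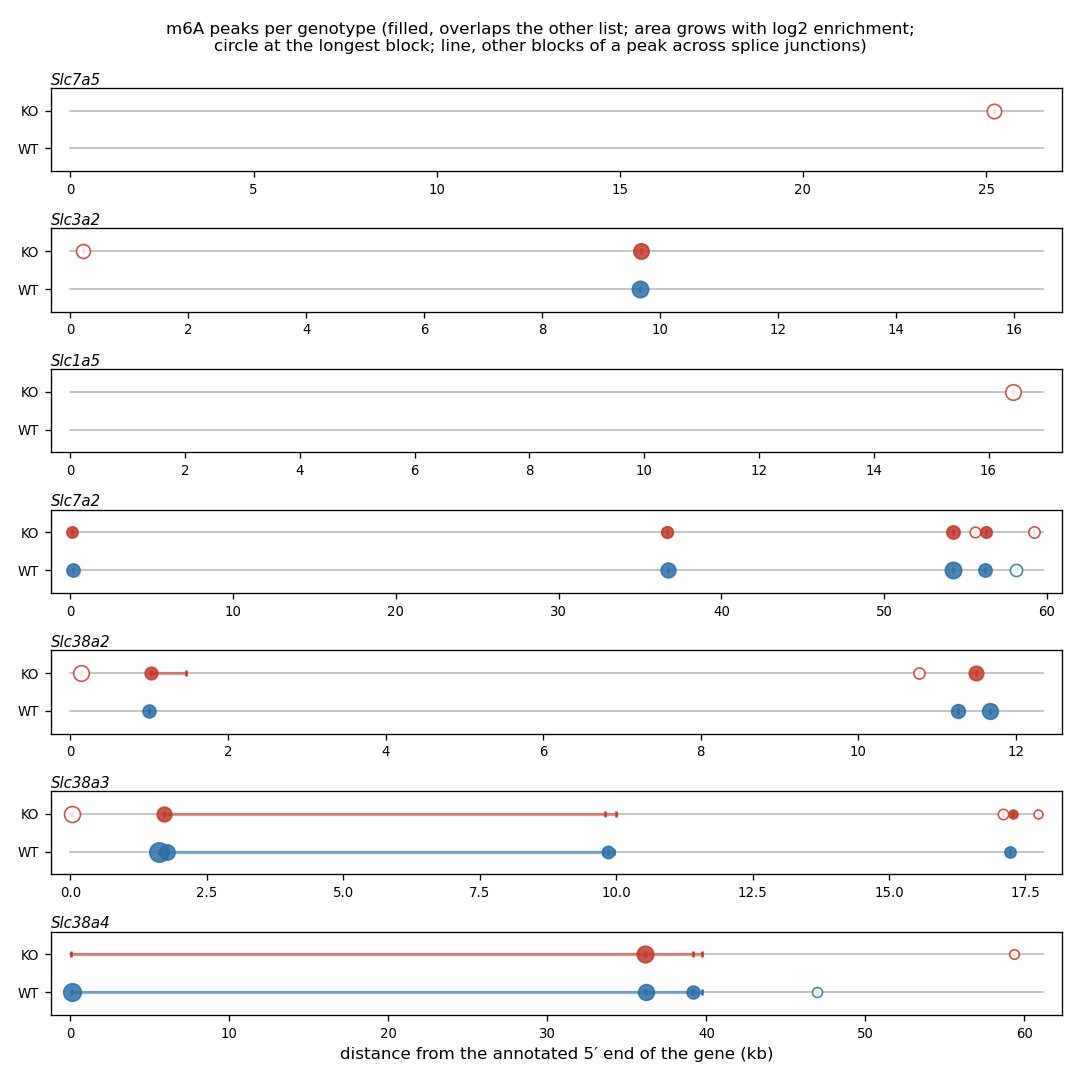
Positions of all 21 KO peaks (upper row of each panel) and all 17 WT peaks (lower row) along the 7 transporters that had any, as distance in kb from the annotated 5′ end of the gene. Circle area grows with the log2 of the authors' enrichment, filled circles overlap a peak of the other list, open circles do not, and coloured lines join the blocks of a peak that crosses splice junctions; Slc7a5 and Slc1a5 show a single open KO circle each.

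Slc7a5 and Slc1a5 had 1 peak each, in the KO list only, a state that 22.5% of genes with a mean of 50 to 300 shared, while 2.099% had peaks only in the WT list. The Slc7a5 peak (mm10, chr8:121882432-121882531, minus strand) ended 1286 bases before the annotated 3′ end of the gene and had an enrichment of 32.5. The Slc1a5 peak (chr7:16797733-16797782, plus strand) ended 492 bases before the 3′ end and had an enrichment of 60.8. Neither gene had a WT peak to compare it with.

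Slc3a2 carried its main peak in both genotypes at an internal start. The KO peak (chr19:8713495-8713889, minus strand) had an enrichment of 56.9 and the WT peak inside it (chr19:8713593-8713839) one of 95.8. In the direction of transcription the KO peak began 8 bases and the WT peak 58 bases after an annotated RefSeq start that lies within the gene. A second KO peak at chr19:8723123-8723172, with an enrichment of 26.0, lay 197 bases from the 5′ end of the whole gene and overlapped no WT peak. The enrichment at the shared site was lower in the KO list (0.59 of the WT value, or -0.75 on the log2 scale). So it was in 75.1% of all 4282 overlapping pairs, whose median was -0.98. The mRNA was 3.85-fold higher in the authors' deposited table, and a link to the enrichment was not tested.

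Slc7a2, on the plus strand of chromosome 8, had 6 KO and 5 WT peaks, and 4 pairs overlapped. Near the 5′ end the KO peak at chr8:40862417-40862515 had an enrichment of 7.88 and the WT peak at chr8:40862466-40862515 one of 17.7. Further on, chr8:40898945-40899093 in KO had 9.21 and chr8:40899044-40899093 in WT had 39.7. The third pair was chr8:40916402-40916700 in KO, at 18.4, and chr8:40916551-40916600 in WT, at 98.3. The fourth was chr8:40918490-40918689 in KO, at 8.53, and chr8:40918490-40918539 in WT, at 18.4. All 4 pairs had a lower enrichment in KO, between 0.19 and 0.46 of the WT value. The pair with the highest WT enrichment had the lowest ratio, but the WT value is the divisor of that ratio, so no trend is read from this. Peaks without a partner lay at chr8:40917844-40917992 (5.99) and chr8:40921474-40921573 (8.04) in the KO list and at chr8:40920430-40920479 (11.4) in the WT list.

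Slc38a2, on the minus strand of chromosome 15, had 4 KO and 3 WT peaks. Toward the 3′ end 1 long KO peak, chr15:96687989-96688486 with an enrichment of 34.5, covered both WT peaks there, chr15:96688039-96688088 at 65.2 and chr15:96688437-96688486 at 24.1. The KO value lay between the WT values. Near the 5′ end a spliced KO peak within chr15:96698260-96698809, at 13.8, covered the WT peak chr15:96698711-96698760, at 15.9. A KO peak at chr15:96699500-96699698 lay 30 bases from the annotated 5′ end and had the highest enrichment of this gene in the KO list, 62.7, with no WT partner. The fourth KO peak, chr15:96688885-96689033, had an enrichment of 7.39 and no partner either.

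Slc38a3, on the minus strand of chromosome 9, had 5 KO and 4 WT peaks and the highest enrichment of any transporter. The KO peak that covers the site of this maximum had an enrichment of 37.0. The WT peak there, chr9:107667317-107667366, had one of 669.5, and only 1.47% of all WT peaks were higher. The KO peak had 3 blocks, spliced together within chr9:107658946-107667366, with 446 bases in all, against the 50 bases of the WT peak. The same KO peak covered 2 more WT peaks, spliced ones within chr9:107659179-107667267 at 51.0 and within chr9:107658995-107659128 at 12.01. Toward the 3′ end the KO peak chr9:107651651-107651749 had 3.31 and the WT peak chr9:107651651-107651848 had 7.53. KO peaks without a WT partner lay at chr9:107651205-107651254 (3.33), at chr9:107651849-107651898 (5.62) and at chr9:107668919-107668968 (76.3), which ends on the annotated 5′ end of the gene.

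Slc38a4, on the minus strand of chromosome 15, was the only transporter with fewer KO than WT peaks, 2 against 4. A KO peak of 4 blocks within chr15:97016226-97055956 started at the annotated 5′ end and had an enrichment of 107.0, and only 1.93% of all KO peaks were higher. It covered 3 WT peaks, which had 196.7 within chr15:97019814-97055906, 71.3 within chr15:97016843-97019764 and 15.8 within chr15:97016226-97016792. The WT enrichment was thus highest toward the 5′ end, and the KO value lay between the highest and the middle WT value. A KO peak at chr15:96996565-96996614 (4.26) and a WT peak at chr15:97008981-97009030 (4.795) had no partner.

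Across the 15 overlapping pairs of the transporters the enrichment was lower in KO in 11, or 73.3%, beside 75.1% of all 4282 overlapping pairs. The median log2 ratio of KO over WT was -0.88 for the transporters and -0.98 over all pairs, so the transporters lay near the background. Ratios ran from -4.18, at the Slc38a3 site, to 2.76, at the 3′-most of the Slc38a4 pairs. The 15 pairs are not independent, since 1 KO peak takes part in 3 pairs of Slc38a3, another in 3 pairs of Slc38a4 and another in 2 pairs of Slc38a2. Peak length also differed between the lists: the transporters' KO peaks had a median length of 149 bases and their WT peaks one of 50, beside 100 and 50 over all peaks, and its part in the ratios was not tested. The counts of peaks depend on the depth of the IP libraries, which is unknown.

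**Figure D5:**
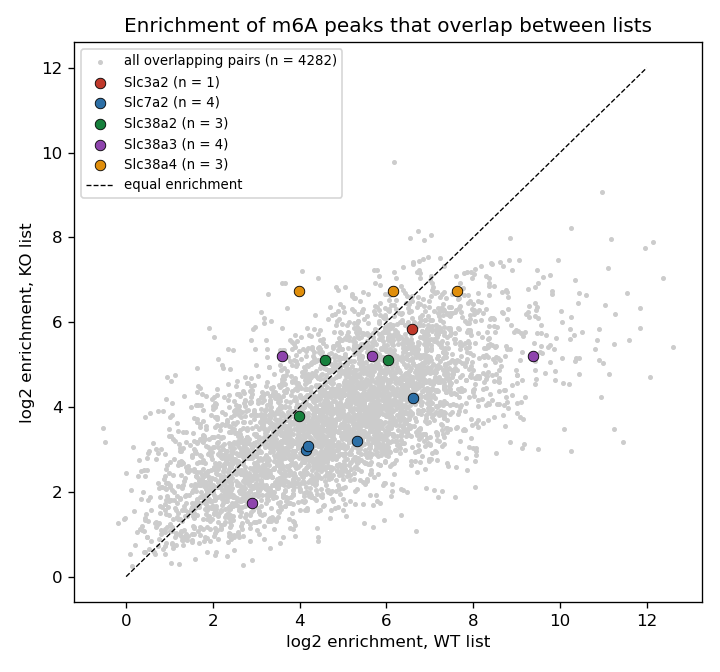
Log2 of the authors' enrichment in the KO list (vertical axis) against that in the WT list (horizontal axis) for each pair of overlapping peaks, over all 4282 pairs (grey) and the 15 pairs of 5 transporters (coloured). The dashed line marks equal enrichment; 11 transporter pairs lie below it, and the 4 above it are 2 of Slc38a4, 1 of Slc38a3 and 1 of Slc38a2.

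The direction of every change rests on a reading of the deposited comparison as KO over WT, which its header does not state. Among genes with a mean of at least 100, those with log2 values above 2 had peaks only in the KO list in 156 of 347 cases and only in the WT list in 0, while for those below -2 the counts were 30 and 46 of 403 (two-sided Fisher's exact test, p = 1.31e-28). Over all genes, at any mean, 19.4% had peaks only in the KO list and 1.59% only in the WT list. The test treats genes as independent, although all come from a single list per genotype and the same input libraries. Its p therefore does not measure how certain the direction is. Mettl14 had 64.5 and 62.0 normalized counts in the KO libraries, against 79.8 and 99.7 in the WT libraries. Its value in the authors' deposited table was -0.50 ± 0.41 on the log2 scale (SE, DESeq2 adjusted p = 0.342), so the targeted mRNA was not shown to be lower. With equal total counts its value was 0.32 in limma (adjusted p = 0.309). Estimated totals of the input libraries were 12446278 to 16848864 reads, and the values rest on whole reads recovered for 16025 of the 16133 genes.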

How the data were processed

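Polyadenylated liver RNA was sequenced in 8 libraries, and the labels describe a stranded library kit. HISAT2 2.1.0, DESeq2 1.18.1 and the build mm10 are named, without their roles, per the submitters' processing notes. For the read counter and the peak caller, nothing is given in the sources at hand. The authors deposited a table comparing KO input with WT input, which holds per gene a mean normalized read count (a signal averaged over the 4 libraries), a log2 fold change with its standard error, a Wald score, a p-value and an adjusted p-value. They also deposited 1 list of m6A peaks per genotype, with a p-value and a fold enrichment (a ratio of IP over input) per peak; whether that p was adjusted is not stated. Peak starts in the deposited lists were read as counted from 1, because in all 3583 KO and 1146 WT peaks of several blocks the last block otherwise ends 1 base past the peak.

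Whole reads of the 4 input libraries were recovered as the only sets that, divided by 1 size factor per library, give the deposited mean in all its digits. Above a mean of 100 only sets near the deposited log2 change were searched. These also had to give that change within 3e-06, or within 0.001 where 1 set was left at a mean of at most 3000. Recovery gave reads for 99.3% of genes. On data made with known reads every set found was the right one, while 1 of 820 genes with a mean of 100 to 10000 and 1 of 10 above that were not found. The log2 changes of those made data came from the same fit that recovery uses, with the same spread set for every gene. Above a mean of 100 they therefore do not test recovery from the authors' own DESeq2 fits. Which libraries are KO follows from the deposited log2 change, read as KO over WT. Size factors were 1.25 for KO A, 1.18 for KO B, 0.927 for WT A and 0.743 for WT B. Recovered reads give only the libraries' values and the alternatives. Those alternatives used limma 3.58.1 (R 4.3.3) with a trend on log2 of normalized counts plus 1, on genes with a deposited adjusted p, and p-values adjusted over all of them by the Benjamini-Hochberg method.

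The 10 transporters and 12 comparison lists were chosen with earlier results of these data known. Named are all 10 transporters with every peak, Mettl14, and up to 3 called genes per direction and list with the smallest adjusted p; Atf4, Slc7a9, Slc38a1, Slc38a7 and Gm32840 were named after their values or positions were seen. One gene that the rule names is not reported here. A count of 0 in a library allows up to 3 reads, for counting error only. Lists are described by counts and medians, with no set test. Gene spans and promoter windows are from RefSeq (GRCm38.p6).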

Additional observations from a re-analysis of the deposited data

How the results depend on the processing

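No transporter changed sign under any alternative. Outside of leaving out a library, 53 of 60 single values kept their side of the threshold and 7 passed it newly, all for Slc7a11 and Slc1a5. The counts of 4 higher and 4 lower transporters were 5 and 4 in limma, 6 and 4 with equal total counts, and 4 and 4 when p was adjusted over every gene, at an adjusted p under 0.01 and at a change of at least 2-fold. Leaving out each library in turn gave 0 to 6 higher and 0 to 4 lower; both counts were 0 without KO A and without KO B, where 0 genes passed in all. Every such fit has 1 residual degree of freedom. Without a KO library the spread comes from the WT pair alone and without a WT library from the KO pair alone, and the lone library is assumed to vary like that pair; the cause of the lost calls was not tested. The smallest adjusted p of any gene was 0.068 without KO A and 0.0587 without KO B. Overlaps were the same with whole spans, and overlaps and the median ratio with overlap of at least 50% of the shorter peak. An enrichment of at least 3 and a p of at most 0.001 removed no peak of the transporters, whose lowest enrichment was 3.31 and largest p 2.71e-05, so these settings test nothing. No paired analysis was possible because the recovered libraries carry no replicate number. The planned edgeR and DESeq2 refits were not run, since the reads are recovered ones; limma took their place for scaling, filters and left-out libraries. The planned search of peaks for GGACT was not run, since no genome was used here. Slc7a11 and Slc1a5 had 0 to 10 and 24 to 38 reads per WT library.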

Other observations

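Slc38a1, Slc38a2 and Slc38a4 lie next to each other on chromosome 15 (mm10, chr15:96571418-97055956 in all). Slc38a1, a system A carrier that liver holds at low levels, had 41.4 and 23.8 normalized counts in the KO libraries, against 20.5 and 22.9 in the WT libraries. Its log2 change in the authors' deposited table was 0.59 (DESeq2 adjusted p = 0.511), beside -1.69 for Slc38a2 and -2.81 for Slc38a4. The difference between these neighbours was not tested.

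Between the KO libraries a gap of 2-fold or more (on normalized counts plus 1) was found for 0 of 28 ATF4 and amino acid response genes with a mean of at least 50, beside 0.93% of all 10431 such genes. Between the WT libraries it was found for 7 of the 28 (25%), beside 2.93% of all such genes. Asns, the gene of asparagine synthetase, had 300.4 and 239.6 normalized counts in the KO libraries, against 301.9 in WT A and 1054 in WT B. Atf3 had 1764 and 3293 in the KO libraries, against 47.4 in WT A and 413.4 in WT B. Ddit3 had 3258 and 2972 in the KO libraries, against 723.5 in WT A and 1919 in WT B. These genes were chosen after their values were seen. For 6 of the 10 transporters WT B was the higher WT library, and for 1, Slc7a11, by more than 2-fold.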
